A study of Homo sapiens with 8 samples.

Results

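Respiratory complex I is built from subunits of both the nuclear and the mitochondrial genome, and these genes were followed in 2 prostate cancer cell lines. The members were every row of the gene table named NDUFA, NDUFB, NDUFC or NDUFS with a number, NDUFV1, NDUFV2 and the 13 protein genes of mitochondrial DNA. This rule found 51 of 57905 rows, which hold 49 symbols: 36 nuclear and 13 mitochondrial. All 51 rows passed the filter on low values, a group mean of at least 1 TPM (a share of all transcripts, with an equal total for each library) in any group. The remaining 2 rows are second gene models under NDUFB8 and NDUFA7, which overlap the main models, and counts below are over the 49 main rows.

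Bulk RNA sequencing was done on DU145 and PC3, established lines from metastases of human prostate cancer. Each line had received a lentivirus carrying TRIB1, the gene of a pseudokinase, or an empty lentivirus as control. The 4 groups, called DU145 control and TRIB1 and PC3 control and TRIB1, hold 2 libraries each, named by replicate number below. The labels give neither the promoter that drove TRIB1 nor whether infected cells were selected or cloned. Nothing says that replicates were grown or infected separately, and a p-value then reflects just the spread of these libraries, possibly a technical one.

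Complex I takes electrons from NADH, passes them to ubiquinone and pumps protons across the inner mitochondrial membrane. Its matrix arm is made of nuclear core subunits, such as NDUFV1 and NDUFS1, and its membrane arm is built on the MT-ND subunits, with accessory NDUFA, NDUFB, NDUFC and NDUFS subunits around both. The mitochondrial genes are copied as long RNAs of each strand, which are cut into separate messages mostly at the tRNAs between them, so the level of each message also depends on processing and decay. MT-ND6 lies on the other strand from the remaining mitochondrial members. MT-CYB belongs to complex III, MT-CO1, MT-CO2 and MT-CO3 to complex IV, and MT-ATP6 and MT-ATP8 to complex V. NDUFA4, named as a complex I gene, is now placed in complex IV.

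TRIB1 itself checked the labels, with 7.94 to 10.1 TPM in DU145 control against 62.3 to 69.4 in DU145 TRIB1, and 45.1 to 50.8 in PC3 control against 241 to 245 in PC3 TRIB1. The epithelial markers KRT8, KRT18, EPCAM and CDH1 were found in every library, while KLK3, a luminal prostate marker, did not exceed 0.186, leukocyte PTPRC 0.467 and endothelial VWF 0.129 TPM. Fibroblast COL1A1 lay at 36 to 69 TPM and COL3A1 at no more than 0.230. STAT3, known to be lost in PC3, was at 0.127 to 0.502 TPM in the PC3 libraries. TPM keeps no totals, so the depth of the libraries is unknown. Short RNAs of the RN7SL genes took 3.41% of TPM in DU145 TRIB1 replicate 2 and 1.49% to 2.40% in the other libraries. The 22 mitochondrial tRNAs summed to 12329 TPM in PC3 control replicate 1 and to between 244 and 4717 TPM elsewhere. In bulk samples, fewer cells of a type and less RNA per cell cannot be told apart.

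The mitochondrial members were far more abundant than the nuclear ones. The 13 mitochondrial members together took 6.77% and 6.80% of TPM in DU145 control, 6.28% and 6.54% in DU145 TRIB1, 5.74% and 5.04% in PC3 control, and 4.69% and 4.57% in PC3 TRIB1. Mean levels in DU145 control ran from 1124 TPM for MT-ND5, a proton-pumping subunit, to 11586 TPM for MT-ND3, a small membrane subunit. The nuclear members ran from 39.8 TPM for NDUFA4 to 688 TPM for NDUFB2 in the same group, with a median of 182 TPM. In PC3 control the lowest nuclear member was NDUFA9 (41.2 TPM) and the highest NDUFS5 (943 TPM). TPM divides by gene length, but the lengths used are not stated, so the order of levels between different genes is approximate.

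Sequences are shown here for the members on which the results below turn. The promoter stretches are the 250 bases before the annotated start (RefSeq, GRCh38.p14), printed 5′ to 3′ on the gene's strand. Capitals mark a match to a motif of a factor known from promoters of respiratory genes: the NRF1 motif in NDUFA12 (its 10 bases are the capitals there, with any base allowed at the sixth) and, read on the opposite strand, in NDUFA9, and the ETS motif CCGGAAG in NDUFB7. The 46 bases that MT-ATP8 and MT-ATP6 share are shown because reads from them cannot be assigned to one gene, and they carry no capitals. NDUFA12 lies at chr12:95003698-95003947 (minus strand), NDUFA9 at chr12:4648864-4649113 (plus strand) and NDUFB7 at chr19:14572067-14572316 (minus strand).
NDUFA12: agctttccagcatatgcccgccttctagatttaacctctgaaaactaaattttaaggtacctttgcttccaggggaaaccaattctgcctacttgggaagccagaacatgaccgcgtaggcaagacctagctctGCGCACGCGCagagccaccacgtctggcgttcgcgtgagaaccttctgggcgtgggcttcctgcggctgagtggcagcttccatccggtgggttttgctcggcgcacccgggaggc
NDUFA9: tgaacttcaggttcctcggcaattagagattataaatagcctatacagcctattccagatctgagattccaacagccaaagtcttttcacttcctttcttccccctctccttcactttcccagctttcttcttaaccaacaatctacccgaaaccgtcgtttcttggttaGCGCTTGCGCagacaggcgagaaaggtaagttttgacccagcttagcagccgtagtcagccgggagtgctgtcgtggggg
NDUFB7: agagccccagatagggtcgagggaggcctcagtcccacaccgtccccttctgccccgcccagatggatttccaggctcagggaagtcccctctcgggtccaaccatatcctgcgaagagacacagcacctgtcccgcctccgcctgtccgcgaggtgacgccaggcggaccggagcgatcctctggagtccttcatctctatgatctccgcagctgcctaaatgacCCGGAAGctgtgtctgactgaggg
MT-ATP8 and MT-ATP6, shared: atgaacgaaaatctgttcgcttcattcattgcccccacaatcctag

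The motif in NDUFA12 begins 116 bases before the start, that in NDUFA9 80 bases and that in NDUFB7 24 bases. Promoter windows from 250 bases before to 50 after the start were found for 30 of the 36 nuclear members and were searched on both strands. The NRF1 motif was in 6 of them (20%; NDUFA3, NDUFA8, NDUFA9, NDUFA11, NDUFA12 and NDUFB4) and in 6.98% of 27305 genes with such a window. The YY1 motif AAGATGGCG was also in 6 (20%; NDUFA6, NDUFA7, NDUFA9, NDUFB8, NDUFS4 and NDUFS7), against 2.14% of genes, and the ETS motif in 5 (16.7%; NDUFA1, NDUFA13, NDUFB7, NDUFS1 and NDUFS3), against 12.2%. The ETS and YY1 motifs can share the letters AAG, but no member held both of these. NDUFA9 held the NRF1 and the YY1 motif. A match is a description and not a site of binding. On the mitochondrial genome MT-ATP8 (bases 8366 to 8572) and MT-ATP6 (8527 to 9207) overlap, and MT-ND4L (10470 to 10766) shares 7 bases with MT-ND4 (10760 to 12137).

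The comparison of TRIB1 with control in PC3 asked which members differ when TRIB1 is raised in that line. The mitochondrial messages moved in opposite directions: MT-ND1 rose while MT-CYB, MT-ATP6, MT-ATP8, MT-CO3, MT-ND3 and MT-CO1 fell. By limma on log2(TPM + 1), with Benjamini-Hochberg adjustment over all 25982 genes tested and a threshold of 0.05, 1 of 13 mitochondrial members rose, 6 fell and 6 did not pass. Over all genes tested 7.67% passed as higher and 9.33% as lower, and among the 5541 genes whose mean reached 30 TPM 13.8% and 20.6% did. No mitochondrial member reached a log2 change of 1 in size, which 5.2% of all genes did with an adjusted p below 0.05. The median log2 change was -0.25 over the 13 members and -0.01 over all genes tested.

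Markers of cell state moved strongly in the same comparison. All 4 epithelial markers were higher in both PC3 TRIB1 libraries, KRT8 at 680 to 691 TPM against 233 to 236 in PC3 control, KRT18 at 590 to 600 against 199 to 216, EPCAM at 175 to 187 against 48.8 to 55.5 and CDH1 at 101 to 107 against 33.6 to 37.0. Their summed level was 517 to 541 TPM in PC3 control and 1546 to 1585 TPM in PC3 TRIB1, beside 1148 to 1199 TPM in DU145 control and 1056 to 1127 TPM in DU145 TRIB1. VIM, the intermediate filament of mesenchymal cells, was lower, at 119 to 122 TPM in PC3 TRIB1 against 589 to 647 TPM in PC3 control, while in DU145 it was at 543 to 577 against 414 to 430 TPM. The luminal gene TMPRSS2 was higher in PC3 TRIB1 (7.64 to 8.58 against 4.52 to 5.06 TPM). The part of this shift in the changes of the members in PC3 was not tested.

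MT-ND1 (bases 3307 to 4262), the membrane subunit at the junction with the matrix arm where ubiquinone enters, was at 2748 and 2443 TPM in PC3 control and at 3809 and 3788 TPM in PC3 TRIB1. Both TRIB1 libraries lay above both controls, a log2 change of 0.55 (SE 0.08, adjusted p = 0.00838). Its neighbour MT-ND2 (4470 to 5511), another proton-pumping subunit, was at 2635 and 2286 against 2731 and 2627 TPM, and the groups overlapped (0.13, adjusted p = 0.33). The 16S ribosomal RNA MT-RNR2 (1671 to 3229), the gene just before MT-ND1 but for a tRNA and no member, was at 1844 and 1577 against 2530 and 2366 TPM and also rose (0.52, adjusted p = 0.012). Without either PC3 TRIB1 library MT-ND1 missed the threshold (adjusted p up to 0.0691), although its change stayed at 0.55 and 0.56.

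MT-CYB (14747 to 15887), the cytochrome b of complex III, fell from 2357 and 2134 TPM to 1580 and 1544 TPM, a log2 change of -0.52 (SE 0.06, adjusted p = 0.00462). It passed under all 19 alternatives, 8 of which each left out 1 library. MT-ATP6, the membrane subunit that carries protons through ATP synthase, was at 2905 and 2570 against 2011 and 1855 TPM, with no overlap (-0.50, SE 0.07, adjusted p = 0.00942). Without PC3 TRIB1 replicate 2 its change was -0.44 and its adjusted p 0.0801. MT-ATP8, a small subunit of the same enzyme, was at 1235 and 1285 against 876 and 805 TPM (-0.58, SE 0.12, adjusted p = 0.0253) and missed the threshold without any 1 of the 4 PC3 libraries (adjusted p up to 0.148), with changes of -0.64 to -0.52. The genes of this pair overlap by the 46 bases shown above, with no tRNA between them. Their falls therefore cannot be counted as those of 2 separate messages.

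The core subunits of complex IV were also lower. MT-CO3 was at 3878 and 3210 against 2643 and 2673 TPM (-0.41, SE 0.09, adjusted p = 0.0293), and MT-CO1 at 8953 and 8297 against 7483 and 7037 TPM (-0.25, SE 0.05, adjusted p = 0.0309). MT-CO2 was at 7795 and 6733 against 6360 and 6327 TPM, short of the threshold (-0.19, adjusted p = 0.136). In all 3 genes both TRIB1 libraries were below both controls. MT-CO3 lost its call without any of the DU145 libraries or either PC3 TRIB1 library (adjusted p up to 0.161), and MT-CO1 without any library except PC3 control replicate 2 (up to 0.262). With 1 library left out the change of MT-CO3 ran from -0.54 to -0.27 and that of MT-CO1 from -0.30 to -0.19.

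Of the MT-ND messages other than MT-ND1, MT-ND3 fell and the rest did not pass. MT-ND3 was at 11067 and 9866 against 8134 and 8670 TPM (-0.32, SE 0.07, adjusted p = 0.0345), and it too lost the call without any library except PC3 control replicate 2 (up to 0.243), with changes of -0.40 to -0.23. MT-ND4L was at 6066 and 4944 against 4746 and 4223 TPM (-0.29, adjusted p = 0.207). MT-ND4 was at 4713 and 3987 against 3801 and 3643 TPM (-0.22, adjusted p = 0.126). Both are membrane subunits, and in both the TRIB1 libraries lay below the controls. MT-ND5 was at 1215 and 1079 against 1092 and 1006 TPM (-0.13, adjusted p = 0.294), and MT-ND6 at 1871 and 1557 against 1639 and 1534 TPM (-0.11, adjusted p = 0.501), with overlap in both. The strand setting of the counting is not stated, so MT-ND6 reads cannot be told from those of the opposite strand. By complex, 1 of 7 MT-ND genes rose and 1 fell (median -0.13), and 5 of 6 others fell (median -0.45). The overlapping MT-ATP8 and MT-ATP6 are counted there as separate genes.

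**Figure D1:**
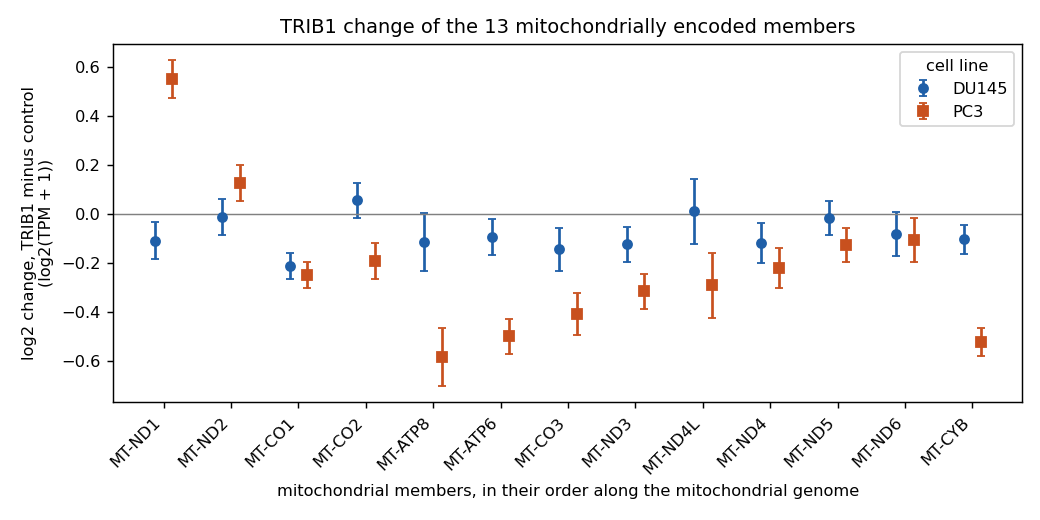
Log2 change (TRIB1 minus control, log2(TPM + 1)) of the 13 mitochondrial members in their order along the mitochondrial genome, in DU145 (circles) and PC3 (squares), 2 libraries per group, with bars of 1 SE from limma. In PC3, MT-ND1 stands at 0.55 and MT-CYB at -0.52, while the DU145 points run from -0.21 to 0.06.

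Ratios between messages of the same library do not depend on the scaling of that library. MT-ND1 over MT-CYB was 1.17 and 1.14 in PC3 control and 2.41 and 2.45 in PC3 TRIB1, and MT-ND1 over MT-ND2 was 1.04 and 1.07 against 1.39 and 1.44. MT-RNR2 over MT-CYB was 0.783 and 0.739 against 1.60 and 1.53. MT-ATP6 over MT-ND2 fell to 0.736 and 0.706 from 1.1 and 1.12. In each ratio the replicates were close together and the PC3 groups did not overlap. In DU145, MT-ND1 over MT-CYB was 0.688 and 0.739 in control and 0.692 and 0.730 with TRIB1, and MT-ND1 over MT-ND2 was 0.652 and 0.688 against 0.581 and 0.674, so there the groups overlapped. MT-RNR2 over MT-CYB did not overlap in DU145 and was higher with TRIB1, as in PC3, at 0.290 in both controls against 0.362 and 0.329. MT-ATP6 over MT-ND2 was also in the direction of PC3, at 1.035 and 1.021 against 0.925 and 1.017, with the nearest libraries of the 2 groups close together. These ratios are given without a test. MT-ND1, MT-RNR2, MT-CYB and MT-ATP6 had each passed in the same PC3 libraries. The separation of the PC3 groups in their ratios is therefore no separate support.

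The summed level of the 13 mitochondrial members was 57440 and 50389 TPM in PC3 control and 46905 and 45731 TPM in PC3 TRIB1, while the 36 nuclear members summed to 9001 and 8914 against 9238 and 9344 TPM. The mitochondrial sum per nuclear sum was 6.38 and 5.65 in control and 5.08 and 4.89 with TRIB1, so both TRIB1 libraries were lower. The control libraries differed from each other more than the TRIB1 libraries did: 12 of 13 mitochondrial members were lower in PC3 control replicate 2 than in replicate 1, by a median of 0.18 on the log2 scale (-0.18). In PC3 TRIB1, 11 of 13 were lower in replicate 2 as well, by a smaller median (-0.06). PC3 control replicate 1 is also the library with the high tRNA sum, and the part of that library in the falls was tested by leaving it out. Without PC3 control replicate 1, MT-CYB (-0.45), MT-ATP6 (-0.41), MT-CO3 (-0.27) and MT-ND1 (0.64) passed. MT-ATP8 (-0.61), MT-CO1 (-0.19) and MT-ND3 (-0.23) kept their direction and did not pass. With all mitochondrial genes left out of the total, 1 mitochondrial member rose and 6 fell, as with the deposited values.

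**Figure D2:**
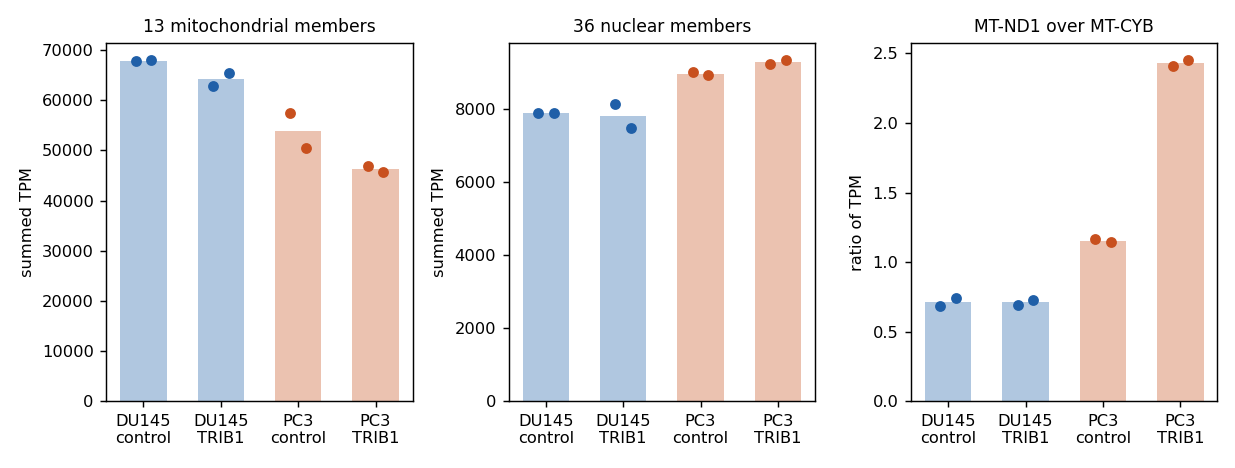
Summed TPM of the 13 mitochondrial members (left), summed TPM of the 36 nuclear members (middle) and the ratio of MT-ND1 to MT-CYB (right), with 1 point per library and bars at the mean of 2 libraries. The mitochondrial sum is lower in both PC3 TRIB1 libraries than in both PC3 controls, and the ratio reaches 2.41 and 2.45 in PC3 TRIB1.

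Among nuclear members in PC3, 6 rose, 1 fell and 29 of 36 did not pass. The members that rose were NDUFA12, NDUFA9, NDUFV1, NDUFC2, NDUFB8 and NDUFB6, and NDUFS5 fell. The share that rose (16.7%) is near the 13.8% of genes whose mean reached 30 TPM and above the 7.67% of all genes tested. The share that fell (2.78%) is below both backgrounds, 20.6% and 9.33%, and neither share was tested against them. Their median log2 change was 0.06, the range -0.32 to 0.70, and none reached 1 in size.

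Within the matrix arm, NDUFV1, the flavin-bearing subunit where NADH is oxidised, was at 196 and 207 TPM in PC3 control and at 255 and 263 TPM in PC3 TRIB1 (0.36, SE 0.08, adjusted p = 0.0305). Its partner NDUFV2 was at 249 and 219 against 202 and 201 TPM, short of the threshold (-0.21, adjusted p = 0.0876). NDUFS1, which carries iron-sulfur clusters, was at 52.2 and 37.6 against 46.5 and 44.3 TPM, with overlap. NDUFS7, which carries the last iron-sulfur cluster before ubiquinone, was at 148 and 175 against 145 and 164 TPM, also with overlap. NDUFS3 was at 80.8 and 83.3 against 93.0 and 88.7 TPM and NDUFS8, a further iron-sulfur subunit, at 219 and 218 against 233 and 233 TPM, both with the TRIB1 libraries higher but not past the threshold. At an unadjusted p below 0.05 NDUFV2 was lower.

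NDUFA12, an accessory subunit of the matrix arm whose promoter is shown above, had the smallest p of the nuclear members. It was at 143 and 154 TPM in PC3 control and at 229 and 236 TPM in PC3 TRIB1 (0.64, SE 0.05, adjusted p = 0.00207), and it passed under all 19 alternatives. NDUFA9, an accessory subunit near the ubiquinone site, was at 46.6 and 35.8 against 70.6 and 63.7 TPM (0.70, SE 0.15, adjusted p = 0.0283). NDUFA9 lost the call without either DU145 control, PC3 control replicate 2 or either PC3 TRIB1 library (adjusted p up to 0.148). Of the 12 NDUFA genes other than NDUFA4, 2 rose (16.7%) and none fell. The share that rose is near the 13.8% of genes whose mean reached 30 TPM and above the 7.67% of all genes tested. At an unadjusted p below 0.05 NDUFA8 was also higher (0.26) and NDUFA2 was lower (-0.16). NDUFA4 was at 121 and 112 against 137 and 127 TPM and did not pass.

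In the membrane arm, NDUFC2 was at 399 and 422 TPM in PC3 control and at 514 and 510 TPM in PC3 TRIB1 (0.32, SE 0.06, adjusted p = 0.0232). NDUFB8 was at 254 and 244 against 312 and 306 TPM (0.31, adjusted p = 0.045), and NDUFB6 at 52.5 and 50.7 against 62.6 and 60.3 TPM (0.25, adjusted p = 0.0494). These 3 and NDUFV1 had separate groups, yet each lost its call without any 1 of the 4 PC3 libraries and without 2 of the DU145 libraries (adjusted p up to 0.113 for NDUFC2, 0.18 for NDUFB8, 0.153 for NDUFB6 and 0.144 for NDUFV1). Their changes stayed between 0.22 and 0.40 with any 1 library left out. The pair of DU145 libraries was the controls for NDUFC2, NDUFB8 and NDUFV1 and the TRIB1 libraries for NDUFB6. NDUFS5, an accessory subunit on the intermembrane side, was at 930 and 955 against 741 and 765 TPM (-0.32, SE 0.05, adjusted p = 0.0094), and its adjusted p was 0.0629 without PC3 TRIB1 replicate 1. The second NDUFB8 model was at 3.69 and 4.29 against 1.04 and 0.0758 TPM (-1.75, adjusted p = 0.021), opposite to the main model it overlaps, so how reads were split between them is uncertain. The second NDUFA7 model was listed at 0 in 3 of the 8 libraries and reached 22.4 TPM in another, and it did not pass.

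**Figure D3:**
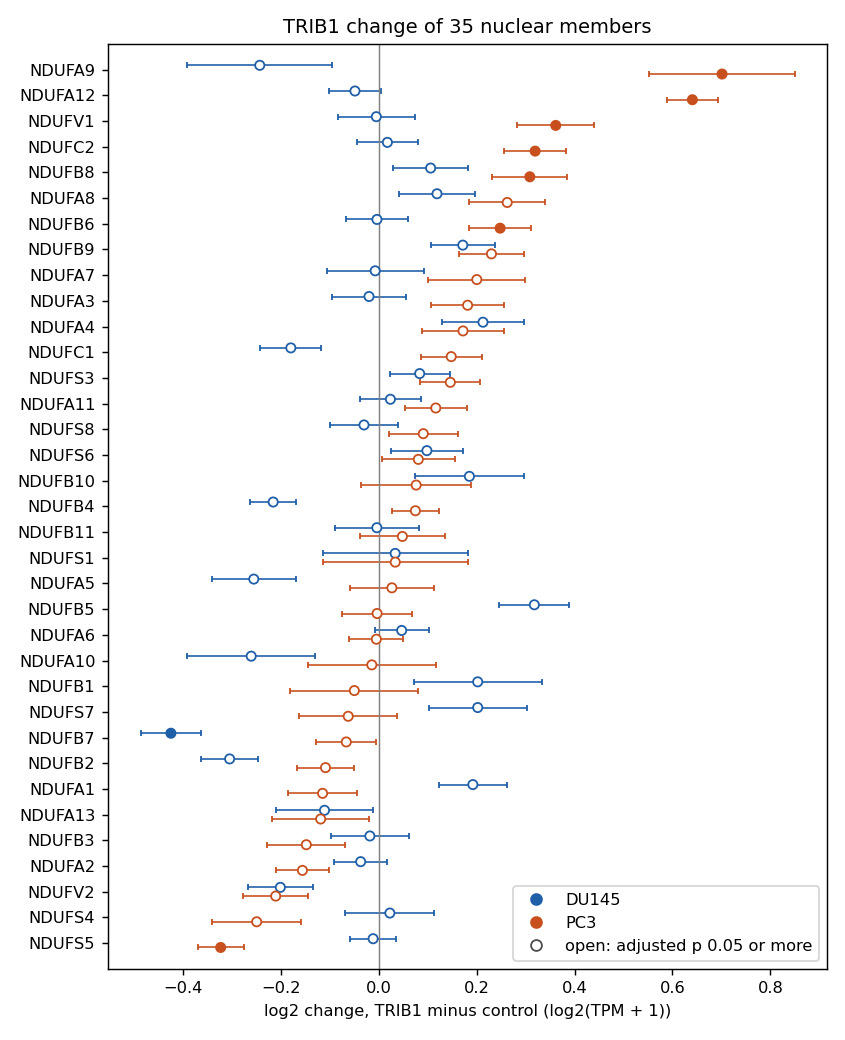
Log2 change (TRIB1 minus control, log2(TPM + 1)) of 35 nuclear members in DU145 (blue) and PC3 (orange), ordered by the PC3 value, with bars of 1 SE from limma. Filled points have an adjusted p below 0.05, which holds for 7 members in PC3 and for NDUFB7 in DU145.

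In DU145, 1 nuclear member fell, none rose and no mitochondrial member passed. NDUFB7, an accessory subunit of the membrane arm, was at 383 and 353 TPM in DU145 control and at 279 and 268 TPM in DU145 TRIB1 (-0.43, SE 0.06, adjusted p = 0.0315, limma). At an unadjusted p below 0.05, 4 nuclear members were higher and 6 lower. Over all genes tested 0.712% passed as higher, 2.01% as lower and 1.12% with a log2 change over 1 in size, and of those whose mean reached 30 TPM 1.35% and 4.4% were higher and lower, so 1 of 36 nuclear members lower is near the background. NDUFB7 lost the call without any 1 of the 4 DU145 libraries or either PC3 TRIB1 library (adjusted p up to 0.121) and under both alternative scalings. The nuclear members ranged from -0.43 to 0.32 with a median of -0.0048, and the median was 0.07 under median-of-ratios scaling. In DU145 TRIB1, 30 of 36 nuclear members were lower in replicate 2 than in replicate 1 (median -0.11), and replicate 2 is the library with the high RN7SL share. The part of the RN7SL genes in that shift was not tested, and the share of all genes lower in replicate 2 was not computed. With the RN7SL genes left out of the total, NDUFB7 was still the 1 member that passed.

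No mitochondrial member passed in DU145 by limma, and 1, MT-CO1, was lower at an unadjusted p below 0.05. MT-CO1 was at 9256 and 9077 TPM in DU145 control and 7858 and 7962 TPM in DU145 TRIB1 (-0.21, SE 0.05, adjusted p = 0.119), with no overlap. MT-ND1 was at 2319 and 2465 against 2113 and 2327 TPM (-0.11), with overlap. MT-CYB was at 3369 and 3334 against 3053 and 3188 TPM (-0.10), MT-ATP6 at 3685 and 3659 against 3363 and 3515 TPM (-0.09) and MT-CO3 at 5662 and 5761 against 5246 and 5097 TPM (-0.14), each with both TRIB1 libraries lower. MT-ND3 was at 11590 and 11582 against 10259 and 11017 TPM, and MT-ND4 at 7022 and 7068 against 6443 and 6539 TPM, both at -0.12 and again without overlap.

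Of the other mitochondrial messages of DU145, none had an unadjusted p below 0.05 either. MT-CO2 was at 8823 and 8701 against 9277 and 8947 TPM, higher in both TRIB1 libraries (0.06). MT-ND2 was at 3559 and 3584 against 3634 and 3455 TPM, and MT-ND4L at 7695 and 7750 against 7069 and 8568 TPM, both with overlap. MT-ND5 was at 1116 and 1131 against 1115 and 1108 TPM, and MT-ND6 at 2095 and 2088 against 1932 and 2023 TPM, slightly lower in both TRIB1 libraries. MT-ATP8 was at 1528 and 1824 against 1407 and 1691 TPM (-0.11), with overlap. In all, 11 of 13 were below zero, beside 14481 of the 25982 genes tested. Under median-of-ratios and under upper-quartile scaling 9 were below zero, and MT-ND2 and MT-ND5 turned positive. The median was -0.10, beside -0.04 over all genes tested. Both TRIB1 libraries were below both controls in 8 of 13. The share of all genes with such a separation was not computed, so that count is not read as a result about the members. The mitochondrial sum was 67720 and 68022 TPM in control and 62767 and 65438 TPM with TRIB1, and the ratio to the nuclear sum (8.58 and 8.64 against 7.71 and 8.77) overlapped.

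These subunits of the matrix arm did not pass in DU145. NDUFV1 was at 212 and 210 TPM in control and 227 and 195 TPM with TRIB1, and NDUFS1 at 47.0 and 48.0 against 49.96 and 47.3 TPM, both with overlap. NDUFV2 was at 239 and 241 against 208 and 208 TPM, lower in both TRIB1 libraries (-0.20, adjusted p = 0.199). NDUFS7 was at 280 and 276 against 332 and 309 TPM, higher in both (0.20, adjusted p = 0.376). NDUFS3 was at 62.3 and 66.8 against 69.6 and 67.2 TPM, also higher in both. NDUFS8 was at 286 and 287 against 301 and 261 TPM.

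Whether the TRIB1 change differed between the lines was tested on the difference of the changes, DU145 minus PC3. Of the nuclear members NDUFA12 (-0.69, SE 0.07, adjusted p = 0.00773) and NDUFA9 (-0.94, SE 0.21, adjusted p = 0.0477) had the more negative change in DU145, and NDUFS5 (0.31, SE 0.07, adjusted p = 0.0431) the more positive one. Among the mitochondrial members MT-ND1 differed by -0.66 (SE 0.11, adjusted p = 0.0222) and MT-CYB by 0.42 (SE 0.08, adjusted p = 0.0342). Over all genes 4.01% had a higher and 5.36% a lower difference (8.93% and 10.1% of those whose mean reached 30 TPM), and 5.12% had one over 1 in size. The 1 higher and 2 lower of 36 nuclear members are near or under that background. NDUFA12 was at 227 and 232 TPM in DU145 control and 223 and 221 TPM in DU145 TRIB1, and its difference passed under every alternative run. The call of NDUFB7 in DU145 alone was not shown to differ between the lines (-0.36, adjusted p = 0.0603).

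The other 4 differences kept their direction with any 1 library left out, while their calls did not hold. The difference then ran from -1.13 to -0.76 for NDUFA9, 0.27 to 0.35 for NDUFS5, 0.35 to 0.49 for MT-CYB and -0.75 to -0.58 for MT-ND1. NDUFA9, at 48.0 and 47.9 against 44.3 and 36.7 TPM in DU145, lost its call without any library except PC3 control replicate 1, and NDUFS5, at 497 and 513 against 514 and 488 TPM, without any except DU145 TRIB1 replicate 2. For MT-CYB the call was lost without any DU145 library or either PC3 TRIB1 library. For MT-ND1 it was lost without either DU145 control, DU145 TRIB1 replicate 1 or either PC3 TRIB1 library. Adjusted p reached 0.151 for NDUFA9, 0.134 for NDUFS5, 0.14 for MT-CYB and 0.1 for MT-ND1 among these.

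**Figure D4:**
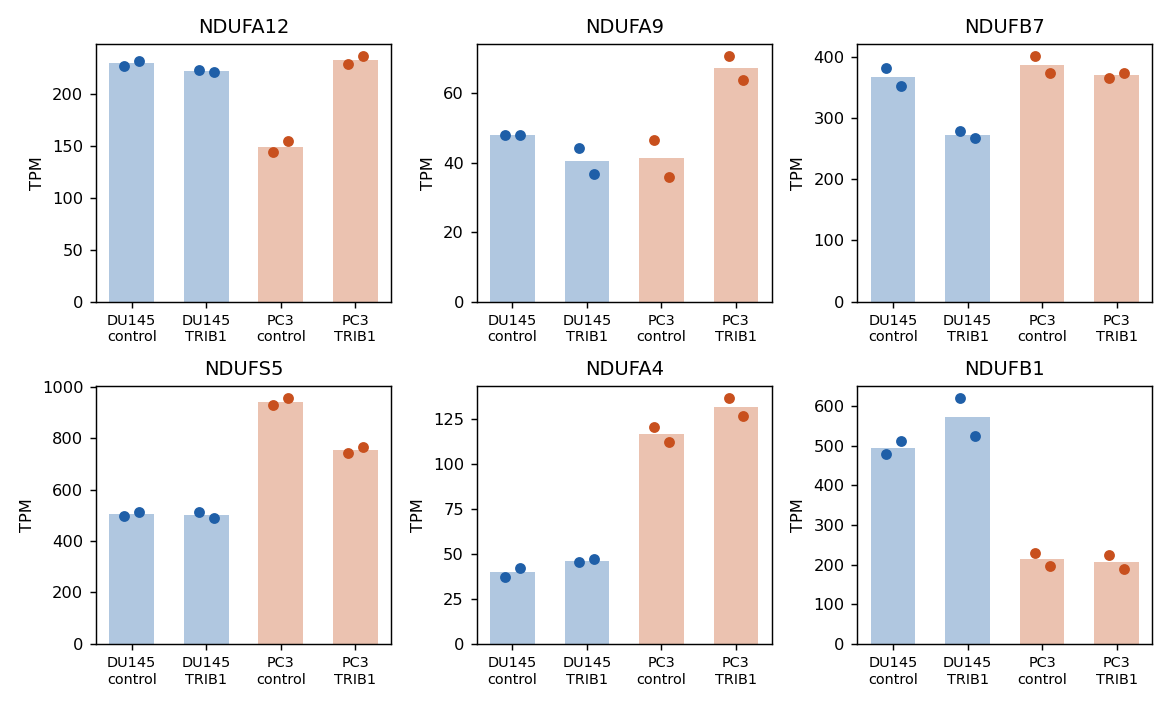
TPM of 6 nuclear members in each library (points) with bars at the mean of the 2 libraries of each group. NDUFA12 is at 143 and 154 TPM in PC3 control and between 221 and 236 TPM in the other groups, and NDUFB1 is lower in all PC3 libraries than in all DU145 libraries.

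More members passed between the lines than under TRIB1 within either, and the same held for all genes tested. Comparing the controls, 14 nuclear members were higher in PC3 (38.9%), 11 were lower (30.6%) and 11 did not pass. Over all genes tested 18.6% were higher and 28.4% lower (31.8% and 37.5% of those whose mean reached 30 TPM). The nuclear shares are near those of the genes whose mean reached 30 TPM and were not tested against them. The call with a log2 difference over 1 held for 4 of 36 nuclear members and for 25.4% of genes. Of the mitochondrial members 9 were lower in PC3, 4 did not pass and none was higher by limma, also at an unadjusted p below 0.05. This split moved with the scaling: median-of-ratios scaling shifted the median of all genes by 0.18 and gave 20 higher and 6 lower nuclear members and 2 higher and 4 lower mitochondrial ones, and upper-quartile scaling gave 18 and 5, and 2 and 5. PC3 control also enters the comparison of TRIB1 with control in PC3, so the values below share those libraries.

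NDUFA4, the complex IV subunit, was at 37.2 and 42.3 TPM in DU145 control and at 121 and 112 TPM in PC3 control (1.53, SE 0.08, adjusted p = 5.58e-05, limma). NDUFB4 was at 152 and 153 against 372 and 354 TPM (1.25, adjusted p = 1.61e-05) and NDUFA1, an accessory subunit of the membrane arm encoded on chromosome X, at 91.6 and 84.5 against 181 and 184 TPM (1.05, adjusted p = 0.000111). NDUFB1, a small membrane-arm subunit, was the reverse, at 479 and 512 against 230 and 196 TPM (-1.22, adjusted p = 0.000679). With the deposited values these 4 were the nuclear members with more than a doubling in either direction, and none had overlapping groups. That set depends on the settings. Under the alternatives other than leaving out a library, NDUFB9 reached up to 1.14, NDUFS5 1.13 and NDUFA3 1.07, and NDUFB1 came as close to zero as -0.986. Of the other accessory subunits, NDUFS5 differed by 0.90, NDUFB9 by 0.91 (292 and 311 against 553 and 585 TPM), NDUFA3 by 0.84 (429 and 378 against 746 and 697 TPM), NDUFA6 by 0.72 (73.4 and 75.1 against 122 and 123 TPM) and NDUFB11 by 0.69 (70.2 and 72.5 against 113 and 118 TPM).

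NDUFA12 was lower in PC3 control (-0.62, adjusted p = 0.000259), as were the core subunits NDUFS7 (-0.78) and NDUFS8 (-0.39), while NDUFS3 was higher (0.34). NDUFA10 (0.74), NDUFA13 (0.61), NDUFC1 (0.28), NDUFA11 (0.23) and NDUFC2 (0.22) were higher too. NDUFB8 (-0.56), NDUFS6 (-0.51), NDUFA7 (-0.39), NDUFS4 (-0.34), NDUFA8 (-0.26) and NDUFA2 (-0.18) were lower too. NDUFA2 changed sign, to 0.05 and 0.02, under median-of-ratios and upper-quartile scaling. Of the 34 members that passed between the controls, 23 passed whichever library was left out.

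On the mitochondrial side, MT-ND4 (-0.70), MT-CO3 (-0.69), MT-CYB (-0.58, adjusted p = 0.000508), MT-ND2 (-0.54), MT-ND4L (-0.50), MT-ATP6 (-0.43), MT-ATP8 (-0.41), MT-ND6 (-0.29) and MT-CO2 (-0.27) were lower in PC3 control. Without PC3 control replicate 2, MT-ND6 was at -0.16 (adjusted p = 0.101, limma) and MT-CO2 at -0.17 (adjusted p = 0.0524). MT-ND1 (0.12), MT-ND5 (0.03), MT-CO1 (-0.09) and MT-ND3 (-0.15) did not pass, but under both scalings MT-ND1 (0.35 and 0.32) and MT-ND5 (0.26 and 0.23) were higher in PC3. MT-ND4, MT-CO3, MT-CYB and MT-ND2 were lower in PC3 under both as well. The ratio of MT-ND1 to MT-CYB, free of scaling, was above 1 in both PC3 controls and below 1 in both DU145 controls.

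**Figure D5:**
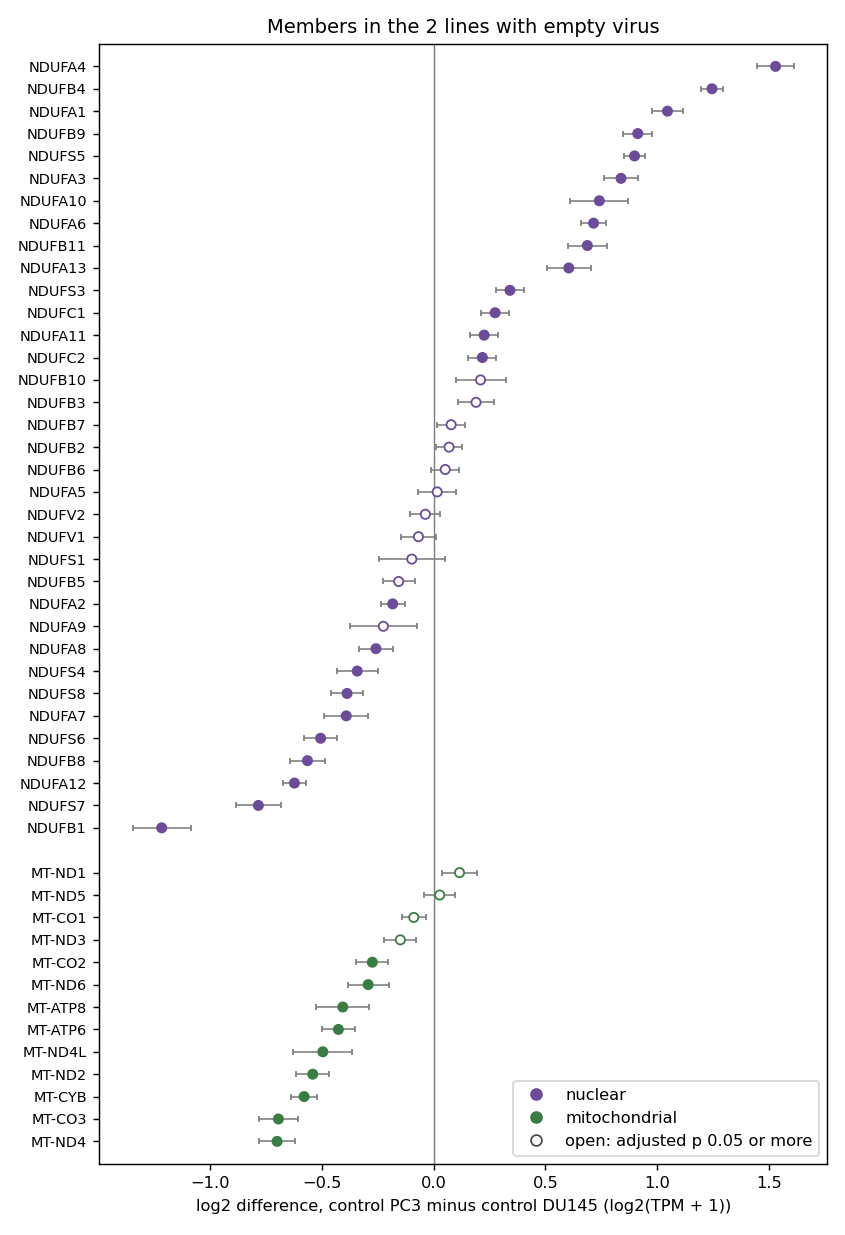
Log2 difference between the control libraries, PC3 minus DU145 (log2(TPM + 1)), for 35 nuclear members (top) and 13 mitochondrial members (bottom), ordered by size, with bars of 1 SE from limma. Filled points have an adjusted p below 0.05. Nuclear members run from -1.22 to 1.53 and mitochondrial members from -0.70 to 0.12, values that rise by about 0.23 and 0.20 under the median-of-ratios and upper-quartile scalings.

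Other genes of the same pathway, from lists drawn up by function, were read in the same fit (limma). Their counts in PC3 stand beside the background given above, 7.67% higher and 9.33% lower over all genes tested and 13.8% and 20.6% of those whose mean reached 30 TPM, and were not tested against it. Of 16 complex I assembly factors, which help to build the complex and are not part of it, 5 rose (31.2%) and none fell in PC3 (median 0.27, beside -0.01 over all genes tested). At an unadjusted p below 0.05, 9 were higher and 1 lower. NDUFAF3 was at 36.7 and 35.1 TPM in PC3 control and 59.1 and 64.9 TPM in PC3 TRIB1 (0.77, adjusted p = 0.00507), NDUFAF4 at 11.9 and 13.4 against 23.4 and 25.7 TPM (0.91, adjusted p = 0.00597), and TMEM126B at 65.7 and 62.4 against 108 and 100.5 TPM (0.69, adjusted p = 0.00727). Of the nuclear genes of the other complexes, 2 of 4 in complex II rose (SDHD by 0.73 and SDHA by 0.24), 1 of 9 in complex III (UQCRB, 0.37), a share of 11.1% near the background, and 5 of 10 in complex IV (among them COX7A2, 0.54, COX8A, 0.50, and COX6C, 0.32). None fell in these, also at an unadjusted p below 0.05. In complex V 3 of 15 rose (among them ATP5F1B, 0.65, and ATP5MG, 0.65) and 2 fell (among them ATP5F1C, -0.42), shares of 20% and 13.3%.

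Of 76 genes of the mitochondrial ribosome tested, which translates the 13 mitochondrial members, 23 rose (30.3%) and 4 fell (5.26%) in PC3 (median 0.15), with MRPS9 at 1.04, MRPL54 at 0.77 and MRPL21 at 0.72. Of 28 genes that copy, process or stabilise mitochondrial RNA, 4 rose (14.3%) and 3 fell (10.7%). The share that rose is near the 13.8% of genes whose mean reached 30 TPM and above the 7.67% of all genes tested. The share that fell is near the 9.33% of all genes tested and below the 20.6% of those whose mean reached 30 TPM. TFAM, which packages and helps to transcribe mitochondrial DNA, was at 72.2 and 69.6 against 111 and 103 TPM (0.59, adjusted p = 0.0062). SLIRP, which with LRPPRC stabilises mitochondrial messages, was at 436 and 383 against 670 and 688 TPM (0.73, adjusted p = 0.00771), and TBRG4, a FASTK-family RNA-binding protein also called FASTKD4, at 185 and 191 against 125 and 125 TPM (-0.58, adjusted p = 0.00613). Of 7 nuclear regulators tested, YY1 (0.58) and ESRRA (0.38) rose (28.6%) and none fell, also at an unadjusted p below 0.05. In DU145 none of the 165 genes tested in these lists passed, beside 0.712% higher and 2.01% lower over all genes tested, and at an unadjusted p below 0.05, 16 were higher and 15 lower. How these bear on the mitochondrial messages was not tested.

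Copies elsewhere in the genome can take reads from members. Of 175 nuclear copies of mitochondrial genes 9 were tested and none passed under TRIB1 in either line (in DU145 1 was higher and 1 lower at an unadjusted p below 0.05), and MTATP6P1, a near-identical copy of MT-ATP6, lay between 40.2 and 99.4 TPM. At an unadjusted p below 0.05 it was lower in PC3 TRIB1 (-0.44), in the direction of MT-ATP6. Of 34 pseudogenes of nuclear members 8 were tested and none passed under TRIB1, with 1 lower in PC3 at an unadjusted p below 0.05. Between the controls 1 of the 9 copies was lower in PC3 (11.1%), MTND2P28 (-0.51, adjusted p = 0.0284, limma), in the direction of MT-ND2. Of the 8 pseudogenes 2 were lower (25%), beside 28.4% of all genes tested. NDUFB8P2 (-1.14, adjusted p = 0.0141) went in the direction of NDUFB8, and NDUFA3P1 (-2.45, adjusted p = 0.015) in the opposite direction to NDUFA3. How the authors' counting treated reads that match several places is not given in the sources used here, so values of members with such copies are uncertain.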

How the data were processed

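RNA of 8 libraries (4 groups of 2, grouped by their titles) was measured, and 1 table of 57905 genes was used. Its values are TPM as deposited by the authors, and every column sums to 1000000. HTSeq, DESeq, edgeR, TopHat2 2.0.14 and hg38 are named in the submitters' processing notes. The maker of the TPM values, the gene lengths, strand setting and annotation behind them are not given in the sources used. TPM is a share of a fixed total, so a large shift in some genes moves all others, and neither depth nor counting intervals can be had.

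The 25982 genes whose mean reached 1 TPM in some group were tested on log2(TPM + 1), where the added 1 understates changes of low genes, with limma 3.58.1 (R 4.3.3) and its mean-variance trend. All 8 libraries entered 1 fit of 4 group means (4 residual degrees of freedom, prior 1.89). P-values are 2-sided, with Benjamini-Hochberg adjustment over these genes. "Rose", "fell", "higher" and "lower" as calls mean an adjusted p below 0.05. The procedure was tested on simulated data, drawn with independent spread in each gene and library. Shifts shared by many genes of a library were not simulated, so that test says nothing about them. The alternatives were 2 pseudocounts, 2 filters, median-of-ratios and upper-quartile scaling, totals without mitochondrial or RN7SL genes, a replicate block, no trend, only the 4 libraries of a contrast, and leaving out each library.

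Named with values were members past the threshold in any contrast (up to 12 each, by p), the mitochondrial members, core subunits, NDUFA4 and up to 3 genes per comparison list. 1 nuclear member enters the counts and sums but is not reported by name, and the nuclear plots leave it out. Other values of DU145 and of the copies were added for completeness. The members and lists were chosen with earlier results of these data known. Listed starts matched GENCODE 29, an annotation of hg38, for the 13 mitochondrial members and for none of the nuclear rows. The genome build behind the values is therefore uncertain, although the notes name hg38, and no listed nuclear coordinates are printed. Promoter sequences are from RefSeq, and the mitochondrial overlap is from the reference genome.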

Additional observations from a re-analysis of the deposited data

Results flagged for a closer look

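The TRIB1 change of 5 members differed between the lines by the test of the difference itself (DU145 minus PC3, limma, log2 scale). NDUFA12 differed by -0.69: the change was -0.05 in DU145 and 0.64 in PC3. NDUFA9 differed by -0.94, from -0.24 in DU145 and 0.70 in PC3. MT-ND1 differed by -0.66, from -0.11 and 0.55. MT-CYB differed by 0.42, from -0.10 and -0.52. NDUFS5 differed by 0.31, from -0.01 and -0.32. Of these, NDUFA12 alone passed whichever library was left out.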

How the results depend on the processing

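Depth is unknown. Of the single-member values, 1337 of 1568 with 1 library left out and 1933 of 2107 under the other settings kept their direction and side of the threshold. The sign changed in 72 and 57 of them, 25 under median-of-ratios and 21 under upper-quartile scaling. All but 2 of these sign changes were of values that had not passed, at most 0.22 in size. Those 2 were NDUFA2 between the controls, -0.18 as deposited and 0.047 and 0.019 under median-of-ratios and upper-quartile scaling. Counts are given as members higher or lower beside the count as reported. In DU145, nuclear members lower (1) were 2 at a filter of 5 TPM and 0 under median-of-ratios scaling, upper-quartile scaling, the replicate block, no trend and the 4 libraries alone. In PC3, nuclear members higher (6) were 2 under upper-quartile scaling, 1 without trend and 2 with 4 libraries alone, nuclear members lower (1) were 0 under upper-quartile scaling and without trend, and mitochondrial members lower (6) were 3 without filter, 2 without trend and 3 with 4 libraries alone. For the difference between lines, nuclear members higher (1) were 0 without filter, under upper-quartile scaling, with the block and without trend. Nuclear members lower (2) were 1 at a pseudocount of 0.1, without filter, under upper-quartile scaling, with mitochondrial genes left out and without trend, and 4 at a filter of 5 TPM. Mitochondrial members higher (1) were 0 without filter, with the block and without trend and 2 at a filter of 5 TPM and under median-of-ratios scaling, and mitochondrial members lower (1) were 0 without trend. Between the controls, nuclear members lower (11) were 6 under median-of-ratios scaling, 5 under upper-quartile scaling and 7 without trend. Mitochondrial members higher (0) were 2 under either scaling, and lower (9) were 5 without filter, 4 under median-of-ratios and 5 under upper-quartile scaling. The cause was not tested.

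Leaving out 1 library at a time gave, in DU145, 0 to 2 nuclear members lower, 0 higher and 0 mitochondrial members either way. In PC3 it gave 1 to 6 nuclear higher, 0 to 2 nuclear lower, 0 to 1 mitochondrial higher and 1 to 7 mitochondrial lower. For the difference it gave 0 to 1 nuclear higher, 1 to 3 nuclear lower, 0 to 4 mitochondrial higher and 0 to 1 mitochondrial lower. Between the controls it gave 11 to 14 nuclear higher, 7 to 11 nuclear lower, 0 mitochondrial higher and 5 to 8 mitochondrial lower. Where a group kept 1 library, that library was assumed to vary like the other groups. Over all genes tested, same-numbered libraries did not deviate together (correlations of -0.04 to 0.01 between groups), so the numbers were not taken to pair them. The mitochondrial members were mostly lower in replicate 2 in PC3 control (12 of 13) and PC3 TRIB1 (11 of 13). In DU145 control 6 and in DU145 TRIB1 4 of 13 were lower in replicate 2. With the replicate block, 4 nuclear members were higher and 5 mitochondrial members lower in PC3, and 13 nuclear members were higher and 9 lower between the controls.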

Other observations

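The tRNA gene MT-TP, which lies on the strand opposite to MT-CYB and a little beyond its end, was at 10629 TPM in PC3 control replicate 1 and at 1420 TPM in replicate 2. It was at 2015 and 4120 TPM in PC3 TRIB1, at 1274 and 1010 TPM in DU145 control, and at 460 and 196 TPM in DU145 TRIB1. The 12S ribosomal RNA MT-RNR1 was at 525 and 455 TPM in PC3 control and at 594 and 536 TPM in PC3 TRIB1, and it did not pass (0.21, adjusted p = 0.165, limma), while MT-RNR2 in the same transcript rose by 0.52.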
